A study of Danio rerio with 4 samples.

Results

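A group of 4 transcription factors of vessel identity, the SoxF genes sox7 and sox18, the orphan nuclear receptor nr2f2 and the homeobox gene prox1a, was read from RNA sequencing of cells sorted from the tail of embryos of the zebrafish, Danio rerio, at 52 hours post fertilisation. The rows were chosen by gene symbol, each symbol had 1 row in the table, and all 4 of these genes, out of 31947 listed, were among the 19016 genes tested. Cells positive for kdrl:mCherry, a reporter under the promoter of an endothelial VEGF receptor, gave 2 libraries (CHT-EC). Cells positive for CD41:GFP, a reporter under the itga2b promoter that marks blood stem and progenitor cells and thrombocytes, gave 2 libraries (CHT-HSPC). CHT stands for caudal hematopoietic tissue, the venous plexus of the tail in which blood stem cells lodge and expand. Nothing in the labels tells whether both reporters were carried by the same embryos, or whether a group's libraries stem from different clutches or sorts, so the p-values describe spread among these libraries alone, and that spread may be technical.

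Sox7 and Sox18 belong, with Sox17, to the SoxF group of HMG-box factors, which act in part redundantly in endothelium. In zebrafish, embryos lacking both Sox7 and Sox18 fail to separate artery from vein properly. Nr2f2, also called COUP-TFII, promotes venous identity in the mouse by restraining Notch signalling. In the mouse, Sox18 and Nr2f2 act upstream of Prox1, the factor that turns venous cells toward a lymphatic fate, and in zebrafish prox1a marks the venous cells that give rise to lymphatic vessels. All of these genes also have roles outside vessels, for instance nr2f genes in the nervous system and prox1a in slow muscle.

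Read depth was similar in all libraries, with totals from 27514202 to 32268535 counts, and a count of 3, the limit that a count of 0 allows, was worth 0.0867 to 0.112 CPM (counts brought to a common library total with TMM factors). Intervals and such limits cover counting error only. Genes with a count numbered 23309 in CHT-EC replicate 1, the library with the lowest total, and 19950 in CHT-EC replicate 2. In CHT-HSPC replicates 1 and 2 they numbered 19598 and 21389. The gene behind the CD41 reporter, itga2b, was at 4.68 and 9.30 CPM in the CHT-EC libraries and at 56.2 and 86.9 CPM in CHT-HSPC. The gene behind the other reporter, kdrl, was at 14.5 and 3.40 CPM in CHT-EC against 3.07 and 0.896 CPM in CHT-HSPC, which did not pass the test (edgeR quasi-likelihood test, adjusted p = 0.208). In bulk samples such as these, fewer cells of a type and less RNA per cell cannot be told apart. Levels are not compared between genes, because no transcript lengths were used.

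Of the 4 factors, nr2f2 was higher in CHT-EC, and sox7, sox18 and prox1a did not pass the test across all genes (quasi-likelihood test of edgeR with Benjamini-Hochberg adjustment, threshold 0.05). Over all genes tested, 4.53% were called, 3.78% as higher in CHT-EC and 0.752% as higher in CHT-HSPC. At an unadjusted p under 0.05 these shares were 14.6 and 9.23%, and sox18 and nr2f2 fell among the former. Both CHT-EC libraries lay above both CHT-HSPC libraries for nr2f2 alone among the 4, an arrangement that 30.6% of all tested genes showed.

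**Figure D1:**
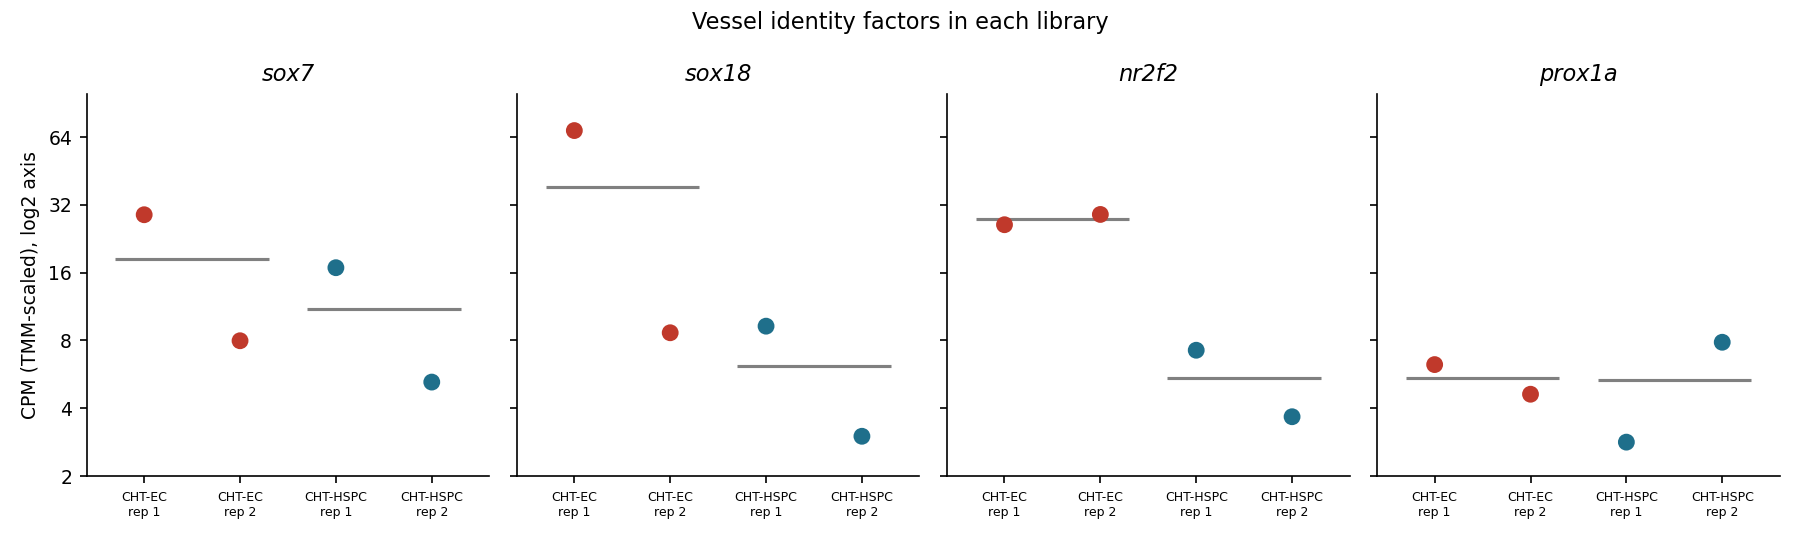
Level of each factor in the 4 libraries, in CPM scaled by TMM factors on a log2 axis, with CHT-EC in red, CHT-HSPC in blue and a grey line at the mean of each group of 2 libraries. The groups stand apart for nr2f2 (26.1 and 29.0 against 7.24 and 3.67 CPM) and overlap for the other 3 genes, and CHT-EC replicate 1 is the highest point for sox7 and sox18.

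The level of sox7 (ENSDARG00000030125) was 28.9 CPM in CHT-EC replicate 1, 7.98 CPM in CHT-EC replicate 2, 16.8 CPM in CHT-HSPC replicate 1 and 5.23 CPM in CHT-HSPC replicate 2, from 773, 235, 500 and 181 counts. The groups overlapped, since the second CHT-EC library lay below the first CHT-HSPC library. Group levels were 18.5 ± 14.8 CPM in CHT-EC against 11.03 ± 8.21 CPM in CHT-HSPC, where each value here and below is a mean ± SD with n = 2. The log2 fold change, CHT-EC minus CHT-HSPC, was 0.74 (SE 0.75, adjusted p = 0.598), and 30.3% of all tested genes had a larger one. Replicate 1 exceeded replicate 2 by 3.63-fold in CHT-EC and by 3.22-fold in CHT-HSPC, so the libraries of a group were further apart than the group means, whose ratio was 1.67. The sign turned without CHT-EC replicate 1, where the log2 fold change was −0.45 (adjusted p = 0.831).

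Its relative sox18 (ENSDARG00000058598) was at 68.5 and 8.66 CPM in the CHT-EC libraries and at 9.26 and 3.004 CPM in CHT-HSPC replicates 1 and 2, from 1828, 255, 275 and 104 counts. A single library, CHT-EC replicate 1, stood far above the rest, and CHT-EC replicate 2 fell just under CHT-HSPC replicate 1. The mean was 38.6 ± 42.3 CPM in CHT-EC against 6.13 ± 4.43 CPM in CHT-HSPC. With a log2 fold change of 2.65 (SE 0.97, unadjusted p = 0.0285, adjusted p = 0.160), sox18 had the largest mean difference of the 4 factors and missed the threshold. Of all tested genes, 8.17% had a larger log2 fold change. Replicate 1 of CHT-EC exceeded replicate 2 by 7.91-fold, and 4.95% of tested genes had a larger ratio between these libraries. The log2 fold change was 0.52 without CHT-EC replicate 1 (adjusted p = 0.808) and 3.50 without CHT-EC replicate 2, where sox18 passed (adjusted p = 0.0397). It also passed with DESeq2 (adjusted p = 0.0210) and with no filter on low counts (adjusted p = 1.72e-07), but not with limma-voom (adjusted p = 0.245), and over the 12 alternative fits the adjusted p ran from 1.72e-07 to 0.808.

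The level of nr2f2 (ENSDARG00000040926) was 26.1 and 29.0 CPM in CHT-EC against 7.24 and 3.67 CPM in CHT-HSPC, from 698 and 855 against 215 and 127 counts. Its order of libraries differed from that of the SoxF genes, with CHT-EC replicate 2 the highest, and the CHT-EC libraries lay close together. The lower CHT-EC library exceeded the higher CHT-HSPC library by 3.61-fold, while the SD was 7.42% of the mean in CHT-EC and 46.3% in CHT-HSPC. The log2 fold change of 2.34 (SE 0.47, adjusted p = 0.0415) corresponds to a 5.06-fold higher level in CHT-EC, and 10.1% of all tested genes had a larger one. Across the 12 alternative fits the log2 fold change stayed between 1.97 and 2.91, and the adjusted p ran from 5.21e-05 to 0.157. The call ended without CHT-EC replicate 1 (adjusted p = 0.157), without CHT-EC replicate 2 (0.115), likewise without CHT-HSPC replicate 2 (0.0714) and with library totals alone (0.0512).

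The level of prox1a (ENSDARG00000055158) was 6.25 and 4.62 CPM in CHT-EC against 2.83 and 7.86 CPM in CHT-HSPC, from 167, 136, 84 and 272 counts. The 2 CHT-HSPC libraries were the lowest and the highest of the 4, and both CHT-EC libraries fell between them. Group means were almost equal, 5.44 ± 1.16 CPM in CHT-EC against 5.34 ± 3.56 CPM in CHT-HSPC, with a log2 fold change of 0.02 (SE 0.66, adjusted p = 0.991). An SE of this size leaves room for a difference in either direction. The log2 fold change was −0.53 without CHT-HSPC replicate 1 and 0.98 without CHT-HSPC replicate 2 (adjusted p = 0.682 and 0.446).

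**Figure D2:**
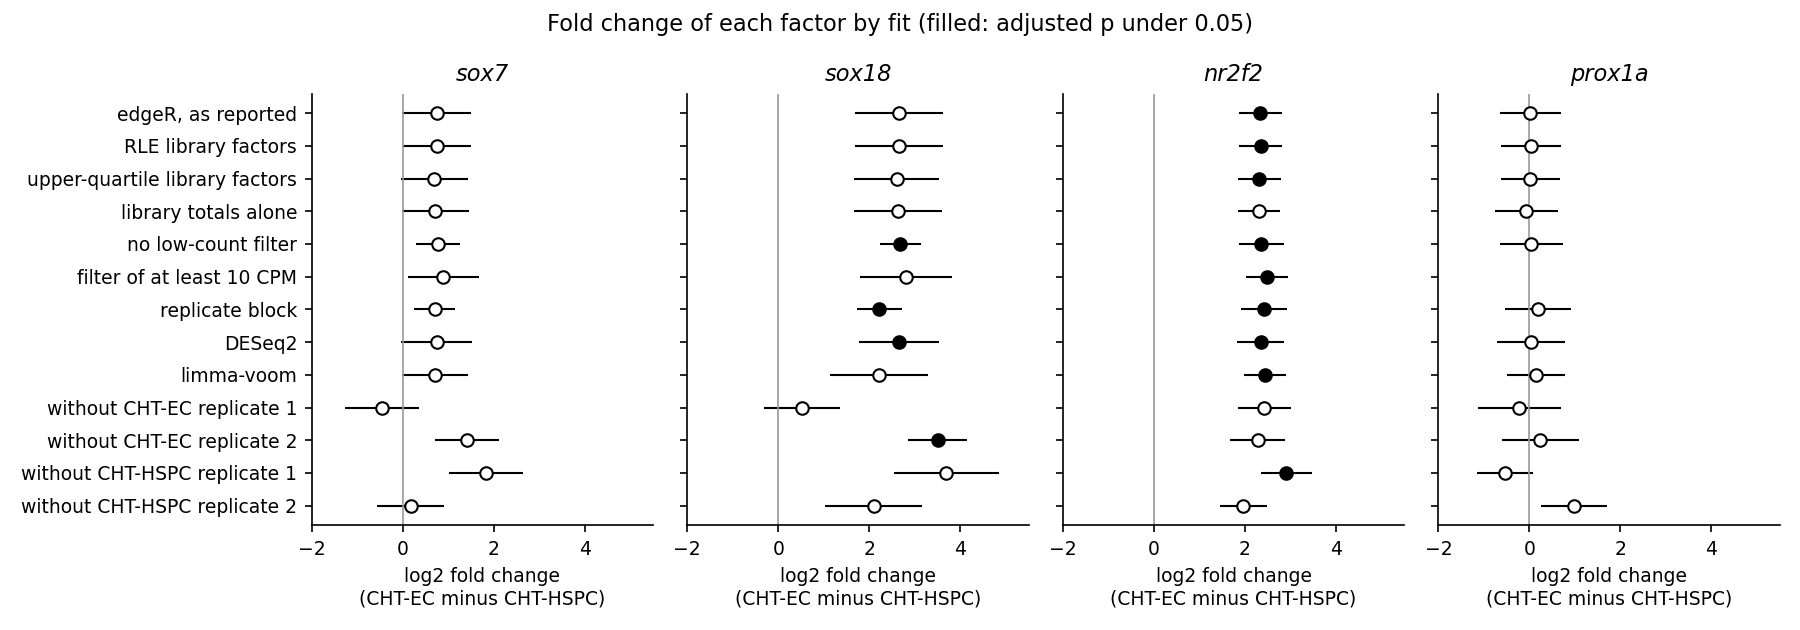
Log2 fold change (CHT-EC minus CHT-HSPC) with its SE for each factor in the reported edgeR fit and in 12 alternative fits, with filled points where the adjusted p is under 0.05. The values of nr2f2 stay between 1.97 and 2.91, those of sox18 run from 0.52 to 3.69, and those of sox7 and prox1a cross 0; prox1a has no value with the filter of at least 10 CPM.

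Among the paralogs of these factors, 1 gene passed the test, nr2f1a, and it was higher in CHT-EC, as were 3.78% of all genes tested. Of the 4 tested paralogs of nr2f2, DESeq2 placed 2 past the threshold on that side, beside 10.8% of the genes it gave an adjusted p. There limma-voom placed 1, beside 3.71% of all genes tested. The other SoxF genes leaned the other way from sox18 without passing. The level of sox17 (ENSDARG00000101717), which in mammals acts in arteries and in endoderm, was 3.48 and 8.96 CPM in CHT-EC against 14.9 and 8.49 CPM in CHT-HSPC, with a log2 fold change of −0.91 (SE 0.61, adjusted p = 0.409). That of sox32 (ENSDARG00000100591), the endoderm factor of fish, was 0.374 and 0.781 CPM against 3.57 and 1.07 CPM, with a log2 fold change of −1.99 (SE 1.12, adjusted p = 0.330). The sox17 libraries overlapped between groups, while both sox32 values of CHT-HSPC lay above both of CHT-EC, as for 27.9% of all tested genes.

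Within the Nr2f family the call fell on nr2f1a (ENSDARG00000052695), a COUP-TF gene known from the nervous system and the heart atrium. It was at 32.5 and 32.0 CPM in CHT-EC against 8.18 and 3.61 CPM in CHT-HSPC, with a log2 fold change of 2.45 (SE 0.49, adjusted p = 0.0410). Its call ended without CHT-EC replicate 1 (adjusted p = 0.167), without CHT-EC replicate 2 (0.0954) and also without CHT-HSPC replicate 2 (0.0605). Both nr2f5 (ENSDARG00000033172), with a log2 fold change of 1.54 (adjusted p = 0.146), and nr2f6b (ENSDARG00000003165), with 1.51 (adjusted p = 0.126), had CHT-EC libraries above the CHT-HSPC libraries and did not pass. Of all tested genes, 30.6% showed this arrangement. The highest counts in CHT-HSPC were those of nr2f6a (ENSDARG00000003607), at 68.3 ± 12.4 CPM in CHT-EC against 70.0 ± 4.97 CPM in CHT-HSPC, with a log2 fold change of −0.04 (SE 0.27, adjusted p = 0.957). The remaining member, nr2f1b, had 17 and 6 counts in CHT-EC, against 0 and 6 for CHT-HSPC, and was too low to be tested.

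For prox1a the comparison is with prox1b (ENSDARG00000088810), its duplicate from the fish genome duplication. The level of prox1b was 7.15 and 3.33 CPM in CHT-EC against 1.35 and 0.982 CPM in CHT-HSPC. The CHT-EC libraries of prox1b were thus the 2 highest, as for 30.6% of all tested genes, unlike those of prox1a. Its log2 fold change of 2.17 (SE 0.76, unadjusted p = 0.0241, adjusted p = 0.146) did not pass. The more distant prox2 had 5 and 8 counts in CHT-EC and none in CHT-HSPC, and was not tested.

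**Figure D3:**
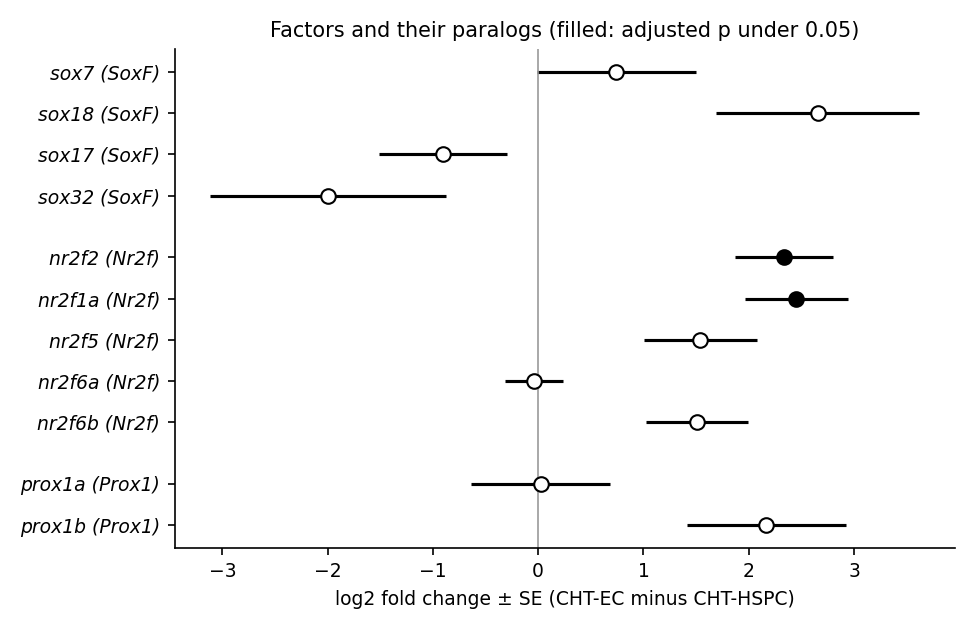
Log2 fold change (CHT-EC minus CHT-HSPC) with its SE for the 4 factors and the tested genes of their families, with filled points where the adjusted p is under 0.05. Only nr2f2 and nr2f1a are filled; sox17 and sox32 lie on the CHT-HSPC side, and prox1b (2.17) lies on the CHT-EC side of prox1a (0.02).

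Ratios of counts within a library do not depend on its total, so shares within small gene groups were also compared. These groups were chosen after the counts were seen, and 2 libraries against 2 cannot reach a two-sided exact permutation p below 0.333, so the shares are given without a test. How often shares within other gene groups set CHT-EC apart from CHT-HSPC was not counted. Levels of single genes did so for 30.6% of all tested genes with CHT-EC higher and for 27.9% with CHT-HSPC higher. Of the counts of sox7 and sox18 together, sox7 made up 29.7% in CHT-EC replicate 1 (exact 95% interval 28.0 to 31.5%) and 48.0% in CHT-EC replicate 2 (43.5 to 52.5%). In CHT-HSPC it made up 64.5% (61.0 to 67.9%) and 63.5% (57.6 to 69.1%). The share of sox7 was thus lower in both CHT-EC libraries than in both CHT-HSPC libraries, although the level of each gene overlapped between groups. With sox17 and sox32 added to the total, the share of sox7 was 28.6 and 30.2% in CHT-EC, against 37.8 and 29.4% for CHT-HSPC, and the groups overlapped.

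The share of prox1a in the counts of prox1a and prox1b was 46.6% (41.4 to 52.0%) and 58.1% (51.5 to 64.5%) in CHT-EC, and 67.7% (58.8 to 75.9%) and 88.9% (84.8 to 92.2%) in CHT-HSPC. The groups did not overlap, and the intervals of CHT-EC replicate 2 and CHT-HSPC replicate 1 did. By contrast, nr2f2 and nr2f1a kept nearly the same proportion in every library. The share of nr2f2 in their sum was 44.6% and 47.5% in CHT-EC, compared with 46.9% and 50.4% for CHT-HSPC, while the sum itself went from 1566 and 1798 counts to 458 and 252. Of the counts of all 6 nr2f genes, nr2f2 made up 14.0 and 16.0% in CHT-EC, against 6.25 and 4.28% for CHT-HSPC.

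Against the reporter gene kdrl and the endothelial cadherin cdh5, the factors behaved differently from one another. The level of cdh5 (ENSDARG00000075549) was 19.8 and 1.05 CPM in CHT-EC against 3.50 and 1.24 CPM in CHT-HSPC, so CHT-EC replicate 2 was the lowest of all. Of the summed counts of sox18, kdrl and cdh5, sox18 made up 66.7% (64.9 to 68.4%) and 66.1% (61.1 to 70.8%) in CHT-EC, and 58.5% (53.9 to 63.0%) and 58.4% (50.8 to 65.8%) in CHT-HSPC. Over libraries in which sox18 itself ranged from 3.004 to 68.5 CPM, this share lay between 58.4 and 66.7%, and both CHT-EC libraries lay above both CHT-HSPC libraries. The interval of CHT-EC replicate 2 overlapped both CHT-HSPC intervals, and that of CHT-EC replicate 1 overlapped that of CHT-HSPC replicate 2. In the same ratio sox7 took 45.8 and 64.2% in CHT-EC, against 71.9 and 71.0% for CHT-HSPC, higher in both CHT-HSPC libraries. The share of nr2f2 was 43.3 and 86.7% in CHT-EC, against 52.4 and 63.2% for CHT-HSPC, and that of prox1a was 15.4 and 50.9% in CHT-EC, against 30.1 and 78.6% for CHT-HSPC. For nr2f2 and prox1a the 2 libraries of each group were thus further apart than the group means.

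**Figure D4:**
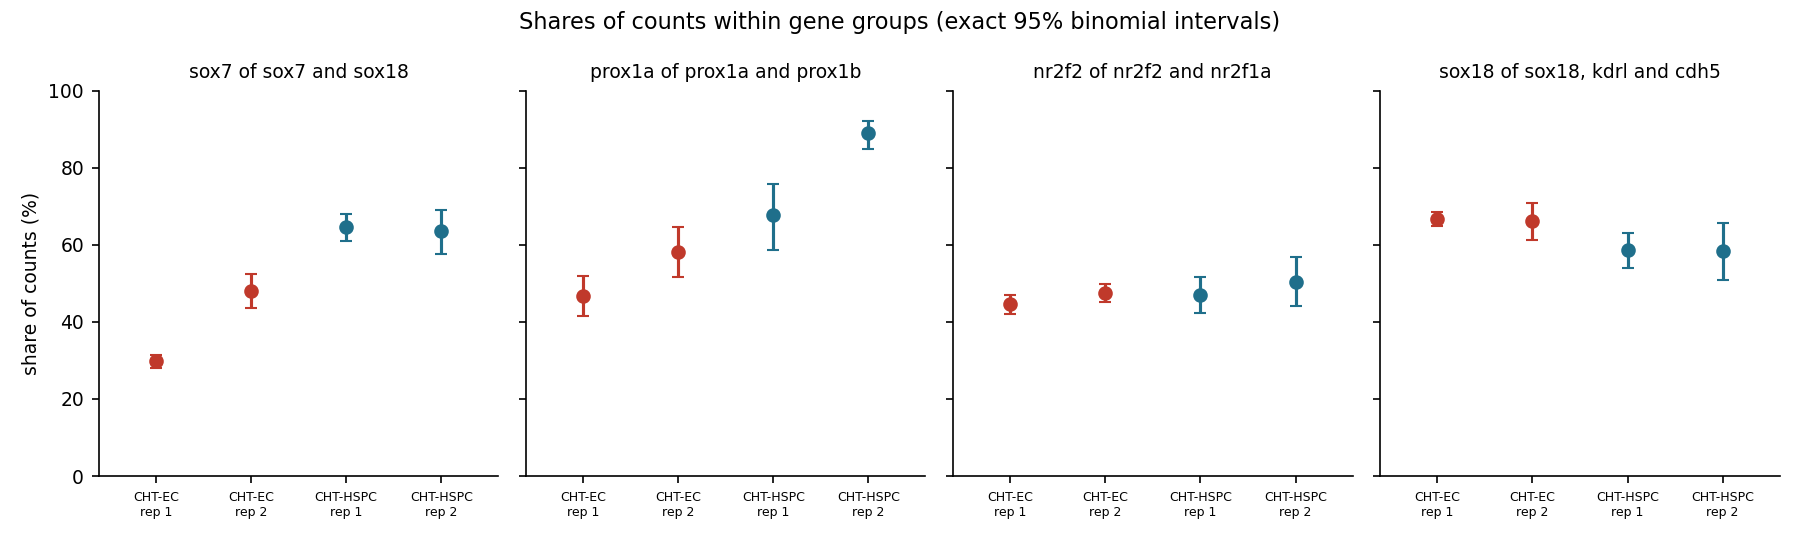
Share of counts in each library, in percent, with exact 95% binomial intervals, for sox7 among sox7 and sox18, prox1a among prox1a and prox1b, nr2f2 among nr2f2 and nr2f1a, and sox18 among sox18, kdrl and cdh5, with CHT-EC in red and CHT-HSPC in blue. The first 2 shares are lower in both CHT-EC libraries (29.7 and 48.0%, and 46.6 and 58.1%) than in CHT-HSPC, the third lies between 44.6 and 50.4% throughout, and the last lies between 58.4 and 66.7%.

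A broader reference, the summed counts of 36 blood endothelial genes, gave log2 differences between the groups of 0.70 for sox7, 2.21 for sox18, 2.42 for nr2f2 and 0.19 for prox1a, each a difference of mean log2 shares. For prox1a the plain means ran the other way, with 5.98 counts per 1000 of the list in CHT-EC and 6.44 in CHT-HSPC. For sox18 the counts per 1000 of the list were 67.3 and 10.9 in CHT-EC replicates 1 and 2, against 8.76 and 3.90 in CHT-HSPC. The narrow range of sox18 beside kdrl and cdh5 thus did not hold against this broader list. The sum rested on few genes. A set of 4 of them, apln, dusp5, yrk and the gene listed as si:dkey-261h17.1 (cd34 in the gene name table), took 46.2 and 68.3% of it in CHT-EC, against 81.4 and 77.6% for CHT-HSPC. Under kdrl and cdh5 alone the difference was −1.02 for sox7, 0.49 for sox18, 0.70 for nr2f2 and −1.53 for prox1a.

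For each factor, the genes with the most similar profile over the 4 libraries were found among 13625 other tested genes. These were the genes with a mean of at least 1 CPM, a count in every library and a symbol that is not a clone name. The measure was the root mean square distance of log2 levels centred on each gene's mean. Only 4 points define such a profile, so the likeness is a description. Nearest to sox7 were vcanb, a versican of the extracellular matrix (distance 0.0562), anxa5b, an annexin (0.0723), and bcar1, an adhesion adaptor (0.0760). Nearest to sox18 were fgf4, a fibroblast growth factor (0.128), cygb1, a cytoglobin (0.220), and sulf1, a heparan sulfatase (0.246), and 1 gene in all lay within 0.2. That gene, fgf4, was low, at 3.07 and 0.441 CPM in CHT-EC against 0.472 and 0.173 CPM in CHT-HSPC. Nearest to nr2f2 were syn1, a synapsin of synaptic vesicles (0.0621), sh3bp5b (0.0920) and golga7ba (0.0935). Nearest to prox1a were map3k20, a MAP kinase kinase kinase (0.0477), arhgef10 (0.0652), and sdr16c5a, a short-chain dehydrogenase (0.0677). Within 0.2 lay 21 genes for sox7, 41 for nr2f2 and 87 for prox1a. The paralog nr2f1a was not among the 3 nearest to nr2f2. The 4 factors were not near one another. The closest pair, sox7 and sox18, lay 0.854 apart, with 365 genes closer to sox18 than sox7 was and 2114 closer to sox7 than sox18 was, and prox1a lay 1.25 to 1.74 from the other 3.

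The factors were set beside lists of vessel genes that left them out. Among genes of veins and lymphatics, 3 of 27 tested were higher in CHT-EC, with a median log2 fold change of 1.35 against 0.02 for all genes, and 20 of 27 values above 0 against 50.8% of all genes. On the CHT-HSPC side 0 passed with edgeR (2 at an unadjusted p under 0.05), 1 with DESeq2 and 0 with limma-voom. As a background for such counts here and below, edgeR called 3.78% of all tested genes as higher in CHT-EC and 0.752% as higher in CHT-HSPC. At an unadjusted p under 0.05 the edgeR shares were 14.6 and 9.23%. DESeq2 called 10.8% of the genes it gave an adjusted p as higher in CHT-EC and 4.27% as higher in CHT-HSPC, and limma-voom 3.71 and 1.23% of all genes tested. The 3 higher in CHT-EC were stab2 (ENSDARG00000045748), a scavenger receptor of the caudal vein, mafba (ENSDARG00000017121), a Maf factor that acts in lymphatic development and also in macrophages, and aqp1a.1 (ENSDARG00000023713), an aquaporin of endothelium and red cells. Both CHT-EC libraries lay above both CHT-HSPC libraries for stab2, mafba and aqp1a.1 alike. This arrangement held for 16 of the 27 tested genes of the list and for 30.6% of all tested genes. The level of mafba was 113 and 37.0 CPM in CHT-EC against 8.82 and 2.86 CPM in CHT-HSPC, with a log2 fold change of 3.68 (adjusted p = 0.0405). That of aqp1a.1 was 227 and 255 CPM against 71.9 and 43.1 CPM, with a log2 fold change of 2.07 (adjusted p = 0.0219), and that of stab2 was 104 and 61.3 CPM against 12.2 and 2.74 CPM, with a log2 fold change of 3.48 (adjusted p = 0.0432). Without CHT-EC replicate 1 all 3 calls ended (adjusted p = 0.177 for mafba, 0.0764 for aqp1a.1 and 0.177 for stab2), and that of mafba also ended without CHT-HSPC replicate 2 (0.0538). With library totals alone the calls of stab2 (0.0512) and, by a small margin, mafba ended too. Macrophage markers, beside mafba, summed to 1220 and 1131 CPM in CHT-EC against 91.1 and 244 CPM in CHT-HSPC, and erythroid markers, beside aqp1a.1, summed to 19440 and 34710 CPM against 2555 and 1697 CPM. Their part in these calls was not tested. The other abundant genes of the list, ctsla, a lysosomal cathepsin (log2 fold change 1.35, adjusted p = 0.132), and cxcr4b, a chemokine receptor (0.43, adjusted p = 0.423), did not pass.

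In the arterial list, 0 of 18 tested genes passed with edgeR. On the CHT-EC side 7 had an unadjusted p under 0.05, beside 14.6% of all tested genes. DESeq2 placed 4 on that side past the threshold, and limma-voom 0. The median log2 fold change was 0.49, and 14 of 18 values lay above 0. Its most abundant genes, notch1b and notch1a, Notch receptors, and her9, a Hairy-related repressor, had log2 fold changes of −0.86, 0.76 and −0.31 (adjusted p = 0.246, 0.260 and 0.808). Of the 36 blood endothelial genes, 0 passed with edgeR. At an unadjusted p under 0.05, 15 lay on the CHT-EC side and 3 on the CHT-HSPC side, beside 14.6 and 9.23% of all genes. DESeq2 placed 12 and 2 of the 36 past the threshold and limma-voom 0. Their median was 1.24, with 30 of 36 values above 0. The 3 most abundant were the cd34 entry si:dkey-261h17.1 (−0.95, adjusted p = 0.0929), the apelin ligand apln (−1.77, adjusted p = 0.156) and the phosphatase gene dusp5 (0.28, adjusted p = 0.585). Transcription factors that endothelium shares with blood gave 0 of 20 with edgeR, with 6 and 1 at an unadjusted p under 0.05, 4 and 1 with DESeq2 and 0 with limma-voom. Their median was 1.02, with 16 of 20 values above 0. The most abundant were klf6a (1.21, adjusted p = 0.122), fli1a (−0.27, adjusted p = 0.616) and tal1 (−1.61, adjusted p = 0.102).

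**Figure D5:**
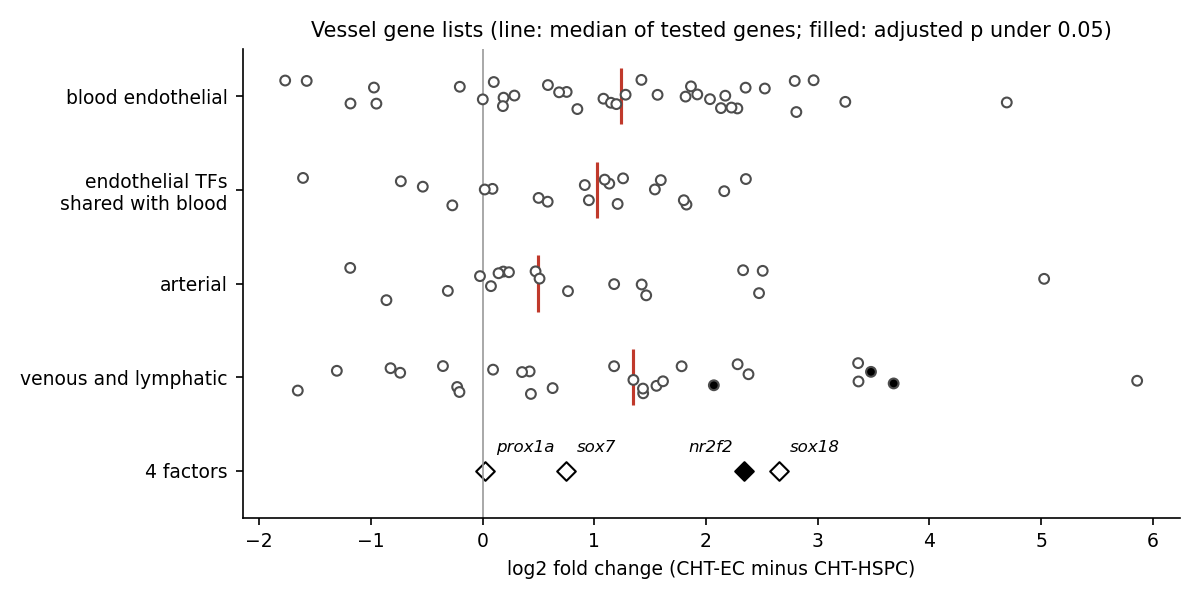
Log2 fold change (CHT-EC minus CHT-HSPC) of each tested gene in 4 vessel lists and of the 4 factors, with the median of each list as a red line and filled points where the adjusted p is under 0.05; vertical scatter within a list has no meaning. The medians lie between 0.49 and 1.35, 3 venous and lymphatic genes are filled, and sox18 (2.65) and nr2f2 (2.34) lie to the right of all 4 medians while prox1a (0.02) lies to the left of them.

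Among 19 tested Sox genes outside the 2 studied, 2 were higher in CHT-EC, both of the SoxB1 group of neural progenitors, beside 3.78% of all tested genes. At an unadjusted p under 0.05 (edgeR), 11 lay on the CHT-EC side and 1 on the CHT-HSPC side. DESeq2 placed 9 and 1 past the threshold, and limma-voom 5 and 0. The median log2 fold change of the 19 was 1.88, with 15 values above 0. The level of sox2 (ENSDARG00000070913) was 25.8 and 31.5 CPM in CHT-EC against 4.48 and 3.21 CPM in CHT-HSPC, with a log2 fold change of 2.90 (adjusted p = 0.0184), and for sox19a (ENSDARG00000010770) the log2 fold change was 3.17 (adjusted p = 0.0368). The call of sox2 ended without CHT-EC replicate 1 (0.0756) or replicate 2 (0.0532), and that of sox19a without CHT-EC replicate 1 (0.106), CHT-EC replicate 2 (0.145) or CHT-HSPC replicate 2 (0.0597). The most abundant Sox genes were sox4a, a SoxC gene (log2 fold change −1.29, adjusted p = 0.0739), its duplicate sox4b (0.94, adjusted p = 0.119) and sox9a, a cartilage factor (2.38, adjusted p = 0.129).

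Markers of other tissues were also read, some of which separated the groups. Of 16 tested neural genes 9 were higher in CHT-EC, with gap43 at 0 in all 4 libraries. The neural sums were 575 and 632 CPM in CHT-EC against 126 and 99.3 CPM in CHT-HSPC, in the same order of libraries as nr2f2. Erythroid sums followed that order too (19440 and 34710 CPM against 2555 and 1697 CPM). Of 10 tested notochord genes 5 were higher in CHT-EC, with sums of 5944 and 1483 CPM against 59.1 and 44.9 CPM, highest in CHT-EC replicate 1 as were sox7 and sox18. Keratinocyte, neutrophil, macrophage, arterial, and venous and lymphatic sums were also highest in that library. So were those of transcription factors that endothelium shares with blood, in the same order of libraries as sox7 and sox18. These were 1137 and 1036 CPM in CHT-EC against 1091 and 960 CPM in CHT-HSPC, a narrow range. The most abundant genes of that list, klf6a, fli1a and tal1, did not themselves follow this order. Both fli1a (151 CPM) and tal1 (46.8 CPM) were lowest in CHT-EC replicate 1. The level of klf6a was higher in CHT-EC replicate 2 (208 CPM) than in CHT-HSPC replicate 1 (159 CPM). Blood endothelial sums were 1017 and 796 CPM in CHT-EC against 1058 and 770 CPM in CHT-HSPC, highest in CHT-HSPC replicate 1. Fibroblast and sclerotome genes summed to 4069 and 2039 CPM in CHT-EC against 2467 and 873 CPM in CHT-HSPC, in the same order as sox7 and sox18, with 0 of 18 tested genes past the threshold (5 on the CHT-EC side at an unadjusted p under 0.05, edgeR, with 2 past the threshold by DESeq2 and 0 by limma-voom) and PDGFRB and fbln1 at 0 in all 4. Slow muscle genes, beside which prox1a was set, summed to 113 and 106 CPM against 244 and 57.9 CPM, lowest in the library where prox1a was highest and highest where it was lowest, and 1 of 8 tested, tnni1b, was higher in CHT-HSPC. The part of these tissues in the values of the 4 factors was not tested.

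Further marker lists also differed between the gates. Beside the 3.78% of all tested genes called higher in CHT-EC and the 0.752% called higher in CHT-HSPC, the lists gave these counts. In CHT-EC, 8 of 12 neutrophil, 9 of 14 macrophage, 7 of 12 erythroid and 2 of 14 keratinocyte genes were higher, and in CHT-HSPC 4 of 9 thrombocyte genes and 1 erythroid gene were. Of the 14 keratinocyte genes, 10 were on the CHT-EC side at an unadjusted p under 0.05 (edgeR), and 9 passed there with DESeq2 and 6 with limma-voom. Keratinocyte sums were 5517 and 2624 CPM in CHT-EC against 1581 and 615 CPM in CHT-HSPC. The thrombocyte calls included itga2b, the gene behind the CD41 reporter used to sort CHT-HSPC, which is also on the stem and progenitor list. The stem and progenitor list, of 13 genes, split by gene. Its 3 calls on the CHT-EC side were cebpa, spi1b and ptprc. Its 4 calls on the CHT-HSPC side were itga2b, runx1, myb and meis1b. Fast muscle genes summed to 3848 and 8531 CPM in CHT-EC against 18920 and 2328 CPM in CHT-HSPC, so the CHT-HSPC libraries were the highest and the lowest. No gene passed with edgeR among 17 fast muscle genes (1 on the CHT-HSPC side at an unadjusted p under 0.05) or among 7 tested lateral line genes (1 on the CHT-EC side). DESeq2 and limma-voom also gave 0 for both lists.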

How the data were processed

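RNA was sequenced from 2 CHT-EC and 2 CHT-HSPC libraries, grouped by sample title, with 150 bp paired-end reads from NEBNext Ultra RNA libraries, per the labels' protocols. Deposited by the authors was a single table of counts by Ensembl gene, whole numbers with unequal column totals, so not normalised. TopHat2, HTSeq 0.6.1 and the build GRCz10 are named in the submitters' processing notes, while the annotation, the strand setting and the treatment of multi-mapped reads are not given in the sources used here. If strand was not used, reads of overlapping or antisense genes cannot be told apart. The labels' protocols also name DEGseq, while edgeR was used here because it models the spread between replicates.

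Counts were fitted over the whole table with edgeR 4.0.16 in R 4.3.3 (quasi-likelihood F-test, TMM factors, filterByExpr with a minimum count of 10 and minimum total of 15, no block, Benjamini-Hochberg over 19016 genes, threshold 0.05). Each SE was obtained by dividing the size of the log2 fold change by √F. The fit was tested on simulated data. DESeq2 1.42.0, limma-voom 3.58.1, other factors and filters, a replicate block and leaving out each library were alternatives. Share intervals are exact binomial (Clopper-Pearson, scipy 1.17.1). Members and lists were chosen with earlier results of these data known. Besides the 4 factors, genes were named if past the threshold, among the 3 most abundant of a list, a reporter gene, a paralog, or among the 3 nearest in profile; groups for shares, which bring in cdh5, were set after the counts were seen. List symbols were matched by table symbol or, where absent, through gene name and RefSeq (GRCz12tu) tables.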

Additional observations from a re-analysis of the deposited data

How the results depend on the processing

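All genes, lists and factors were refitted under 12 alternatives, and the shares against the endothelial list under 7. The number of genes higher in CHT-EC, 718, was 471 with library totals alone, 2119 with no filter on low counts and 2012 with DESeq2, and 111 to 864 with 1 library left out. For CHT-HSPC the number, 143, was 812 without the filter, 796 with DESeq2 and 233 with limma-voom, and 10 to 139 with 1 library left out. The lowest counts came without CHT-EC replicate 1, and leaving out CHT-EC replicate 2 gave 61 for CHT-HSPC. Of the 4 factors, 1 passed as reported, 0 with library totals alone, 2 without the filter and with DESeq2, and 0 to 1 with 1 library left out. Fits that leave out a library assume that the lone one varies like the other group.

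For nr2f2 the log2 fold change was 2.31 with library totals alone, where the call ended, and 1.97 to 2.91 with 1 library left out. For sox18 it was 2.68 without the filter and 2.66 with DESeq2, both past the threshold, and 0.52 to 3.69 with 1 library left out. For sox7 it was −0.45 to 1.82 with 1 library left out, turning only without CHT-EC replicate 1. For prox1a it was −0.0687 with library totals alone, −0.22 when CHT-EC replicate 1 was left out and −0.53 when CHT-HSPC replicate 1 was, and reached 0.98 without CHT-HSPC replicate 2. The filter of at least 10 CPM removed prox1a, and summing rows per symbol changes nothing, since each factor has 1 row. The median of all genes was 0.10 without the filter and 0.18 without CHT-HSPC replicate 2. The cause of these changes was not tested.

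Blood endothelial genes higher in CHT-EC numbered 0 as reported, 1 with upper-quartile factors, 13 without the filter, 12 with DESeq2, and 0 to 5 with 1 library left out. Arterial genes numbered 0, then 4 without the filter, 4 with DESeq2, and 0 to 3. Venous and lymphatic genes numbered 3, then 1 with library totals alone, 9 without the filter, 10 with DESeq2, and 0 to 6. Among the fits with 1 library left out, the count of each list was highest without CHT-EC replicate 2. With 2 libraries per group and a biological coefficient of variation of 0.54, the spread between libraries limits these tests.

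The replicate numbers did not pair the samples by the labels, and the replicate 1 minus replicate 2 differences of the groups had a correlation of 0.00168 over genes. With the number as a replicate block, 2 factors passed, nr2f2 and sox18 (log2 fold change 2.22, adjusted p = 0.0445), as did 3 blood endothelial and 2 arterial genes.

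Against kdrl and cdh5 alone the log2 difference of the share was −1.02 for sox7, 0.49 for sox18, 0.70 for nr2f2 and −1.53 for prox1a. Against the geometric mean of the endothelial genes it was −0.35 for sox7, 1.16 for sox18, whose groups then overlapped, 1.37 for nr2f2 and −0.86 for prox1a, and without the most abundant gene it was −0.0342 for prox1a. With 1 library left out it ranged from −0.0530 to 1.45 for sox7, 0.90 to 3.53 for sox18, 2.16 to 2.69 for nr2f2 and −0.77 to 1.16 for prox1a.

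The shares within gene groups, an analysis added after seeing the data, were recomputed with 1 library left out. The difference in percentage points ran from −34.3 to −16.1 for sox7 among sox7 and sox18, −36.5 to −15.4 for prox1a among prox1a and prox1b, −4.33 to −0.881 for nr2f2 among nr2f2 and nr2f1a, and 7.59 to 8.20 for sox18 among sox18, kdrl and cdh5. It turned in sign for sox7 among the 4 SoxF genes (−8.38 to 0.0328), nr2f2 with kdrl and cdh5 (−14.5 to 28.9) and prox1a with kdrl and cdh5 (−45.4 to 3.09).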
